A study of Triticum aestivum with 18 samples.

Results

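Late embryogenesis abundant (LEA) proteins are small, strongly hydrophilic proteins that build up in the embryo while a seed dries, and dehydrins are the LEA family that also appears in leaves and roots under drought, salt and cold. They are thought to protect membranes and other proteins when water is lost. Their genes are known to respond to abscisic acid, the hormone of seed maturation and dormancy, and their transcripts normally disappear once a seed has taken up water and germinates. The loci described here are those whose deposited description names a dehydrin, a late embryogenesis abundant or LEA protein, Lea5, or an Em protein, the small LEA protein first known from the wheat embryo. This rule gave 59 of the 94141 loci, made up of 37 dehydrins and 22 other LEA loci. The name Em protein was taken only where the word begins with Em, and 8 loci with descriptions such as efflux system protein or meristem protein were left out.

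RNA was sequenced from germinating seeds of 3 hexaploid wheat varieties, BN607 (Bainong607), BN207 (Bainong207) and ZM22 (Zhoumai22), each with 3 waterlogged (W72) and 3 control (C72) libraries, 18 in all. W72 seeds lay under 10 cm of water for 72 h and were then set to germinate unsubmerged, whereas C72 seeds were soaked for 24 h and germinated without waterlogging; both were collected after 72 h of germination. Total time in water and time since the seeds were first wetted therefore differed with the treatment, and their effects cannot be told apart from its own. Growth was at 25 °C, and the methods of the study give 20 °C in the dark for the waterlogging itself. They give no separate temperature or light for the soaking of the controls, so these too may have differed with the treatment. The depth of water is that of the labels, which name a beaker, whereas the methods describe foil-covered Petri dishes. According to those methods, radicles and coleoptiles were taken off before extraction, and the libraries of a group are biological replicates from repeated treatments. Since whole seeds without these organs were extracted, fewer cells of a type and less RNA per cell cannot be told apart in any value below.

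The summed counts per library lay between 68.8 M and 107.7 M. The library labelled W72_BN207 replicate 1 went against its label: it showed 0 of the 124 loci found in the other 5 BN207 libraries but not in BN607, and 127 of the 127 found in BN607 but not in those 5. It is kept as labelled, and the tests that involve BN207 are also given without it. Marker lists differed widely within groups: summed FPKM of the 363 cell division loci that passed the filter for testing ran between 2261 and 24562 in W72_BN607 and between 5915 and 14016 in C72_BN607, between 2144 and 5732 in W72_BN207 and between 1310.1 and 16487 in C72_BN207, and between 1703 and 9337 in W72_ZM22 and between 1110.0 and 5970.4 in C72_ZM22. FPKM, the deposited level, counts fragments per kilobase and is scaled by library size, so that it is corrected for transcript length. The 37 storage protein loci that passed the filter, a mark of seed tissue, were found in all groups, with sums from 23.8 to 4905 FPKM over the 18 libraries. They were taken by the words gliadin, glutenin, globulin, avenin or vicilin, and not by the tissue that stores them.

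The dehydrins as a group stood high in a few libraries of both treatments. Their summed FPKM was 87.6, 4809.6 and 73.9 in the W72_BN207 libraries, against 233, 90.9 and 131 in the C72_BN207 libraries. It was 32.7, 47.9 and 1140.1 in W72_BN607, against 705, 85.6 and 119.8 in C72_BN607. In ZM22 it was 928, 261 and 78.8 in W72, against 1175, 781 and 157 in C72. The waterlogged and control libraries thus overlapped in all 3 varieties, and the highest sum of all came from W72_BN207 replicate 2, with 34 of the 37 dehydrins above the other 5 BN207 libraries by a median ratio of 21.5 to the next highest. The same library was the highest of all 18 for 26 of the 37 dehydrins and for 12 of the 22 other LEA loci. In BN607 the high libraries were W72 replicate 3, the highest of its variety for 20 dehydrins, and C72 replicate 1, the highest for 14; in ZM22 they were W72 replicate 1 for 18 and C72 replicate 1 for 13.

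**Figure D1:**
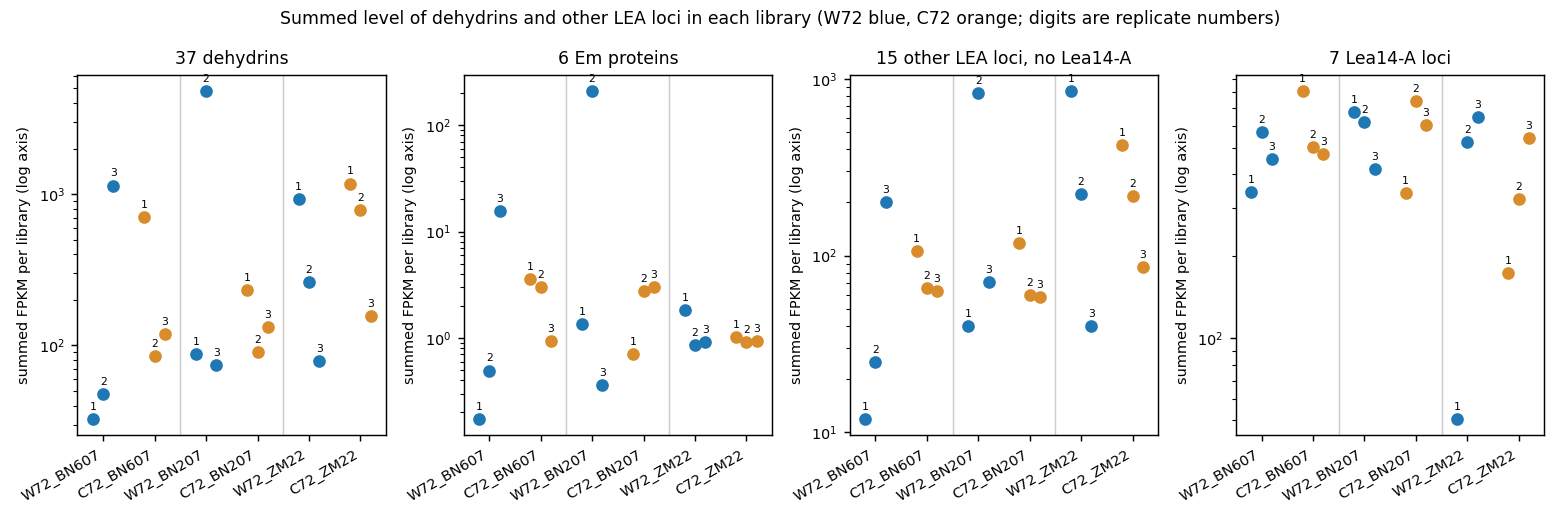
Summed FPKM per library (log axis) of the 37 dehydrins, the 6 Em proteins, the 15 other LEA loci that are not Lea14-A (the Em proteins among them) and the 7 Lea14-A loci, with W72 in blue, C72 in orange and the replicate number beside each point. W72_BN207 replicate 2 stands at 4809.6 FPKM for dehydrins and 209 FPKM for Em proteins, whereas its Lea14-A sum of 622 FPKM lies among those of the other libraries.

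Cell division and storage levels in these high libraries did not share a direction. W72_BN207 replicate 2 had 3813 FPKM of cell division loci and 418 FPKM of storage loci, between the other 2 W72_BN207 libraries for both. Of those 2, replicate 1 carries BN607 transcripts, so only replicate 3 compares it with BN207 seeds of this group. W72_BN607 replicate 3, with 8375 and 215 FPKM, also lay between the other 2 of its group. C72_BN607 replicate 1 had the lowest sums of its group for both, 5915 and 295 FPKM. W72_ZM22 replicate 1 and C72_ZM22 replicate 1 had the lowest cell division sums of their groups, 1703 and 1110.0 FPKM, and the highest storage sums, 4388 and 4905 FPKM. Their part in the dehydrin levels was not tested.

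Among the dehydrins, the DHN1 and DHN2 types made up 2746.7 of the 4809.6 FPKM of W72_BN207 replicate 2, where all 9 of these loci reached their highest level of the 18 libraries. The most abundant, MSTRG.24847 (TraesCS5B02G426800, dehydrin 1; chromosome 5B, 602648556 to 602649390), had 1.54, 804 and 5.31 FPKM in W72_BN207, against 8.86, 1.55 and 13.8 FPKM in C72_BN207. In BN607 it had 1.14, 1.23 and 201 FPKM in W72, against 26.6, 1.59 and 1.36 FPKM in C72. Its ZM22 levels were 146, 25.3 and 1.79 FPKM in W72 and 59.6, 72.9 and 4.58 FPKM in C72. Every group thus held libraries near 1 to 5 FPKM, and values above 25 FPKM came from 1 library in BN207, 2 in BN607 and 4 in ZM22. The dehydrin 1 locus on 5A, MSTRG.22898 (TraesCS5A02G424800; 610184778 to 610185696), had 0.378, 334 and 1.05 FPKM in W72_BN207 against 5.71, 0.726 and 7.12 FPKM in C72_BN207. The 5D locus MSTRG.26877 (TraesCS5D02G433200; 489012960 to 489013838) was more narrowly expressed: 506 FPKM in W72_BN207 replicate 2 made up 79.0% of its FPKM over the 18 libraries, and ZM22 did not pass 15.4 FPKM.

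Elsewhere on each of the 3 group 5 chromosomes a DHN2 and a DHN1 lie side by side, spanning 6.32 kb on 5A, 18.2 kb on 5B and 6.83 kb on 5D. In W72_BN207 replicate 2 the DHN2 copies reached 295 FPKM (5A), 212 FPKM (5B) and 268 FPKM (5D), and the DHN1 beside each 84.8, 44.8 and 198 FPKM. The DHN2 copy was the higher of its pair on each of the 3 chromosomes there. MSTRG.24631, the 5B DHN2 (TraesCS5B02G372100; 550320429 to 550321418), had 0.678, 212 and 0.163 FPKM in W72_BN207, against 0.332, 0.545 and 1.53 FPKM in C72_BN207. In BN607 it was high in 1 library of each treatment, 67.5 FPKM in W72 replicate 3 and 38.4 FPKM in C72 replicate 1, and at most 0.603 FPKM in the other 4.

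**Figure D2:**
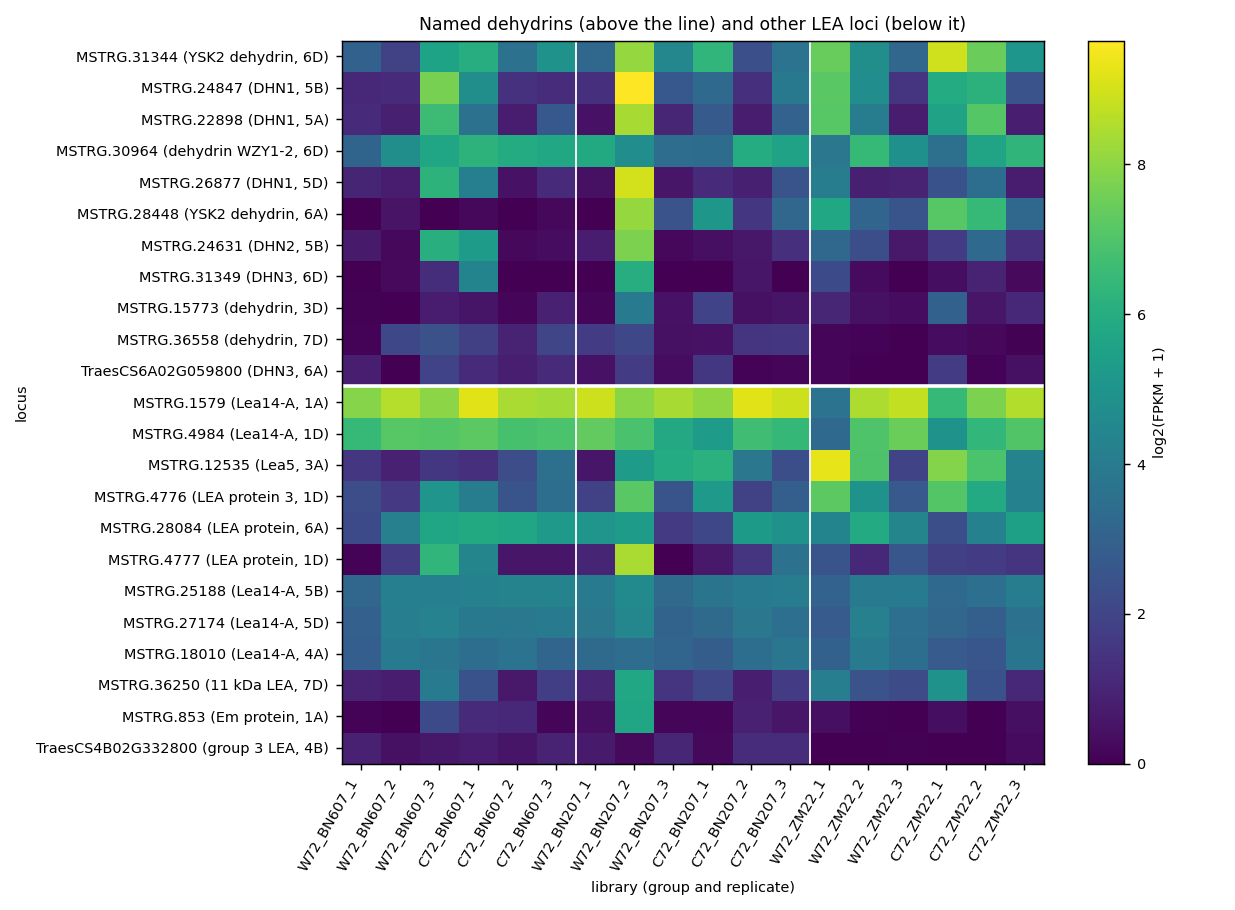
Level of the 11 named dehydrins and the 12 named other LEA loci, as log2(FPKM + 1) by colour, in each of the 18 libraries (W72 left of C72 in each variety, replicates 1 to 3). W72_BN207 replicate 2 is bright for most dehydrins, with MSTRG.24847 at 804 FPKM. The Lea14-A loci MSTRG.18010, MSTRG.25188 and MSTRG.27174 keep a similar shade across libraries.

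Dehydrins of the YSK2 type are named for their Y, S and K sequence segments and described as salt-induced. Those on 6D and 6A were also high in ZM22. The 6B locus MSTRG.29965 had at most 8.83 FPKM in ZM22, against 115 FPKM in W72_BN207 replicate 2 and 44.9 FPKM in C72_BN607 replicate 1. MSTRG.31344 (TraesCS6D02G332900, YSK2 dehydrin 3; chromosome 6D, 435351033 to 435352218) had the highest mean of the dehydrins, 82.0 FPKM over 18 libraries. Its levels were 171, 26.4 and 8.19 FPKM in W72_ZM22, against 498, 175 and 33.0 FPKM in C72_ZM22. In W72_BN207 it had 8.40, 277 and 21.3 FPKM, against 81.2, 4.11 and 11.8 FPKM in C72_BN207. In BN607 it had 6.89, 2.64 and 47.2 FPKM in W72 and 63.3, 11.01 and 29.04 FPKM in C72, and the 3 varieties overlapped. This locus lies in a row of 7 dehydrins within 951 kb on 6D, whose means run from 0.102 to 82.0 FPKM. Neighbours thus differed widely in level, as also on 6A, where 5 dehydrins within 656 kb had means from 0.0348 to 35.1 FPKM. Of the 35 dehydrins placed on a chromosome, 26 lie within 500 kb of another dehydrin or LEA locus.

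The DHN3 type is the most numerous, with 15 loci, of which 8 passed the filter for testing (at least 1 FPKM in 3 libraries). MSTRG.17709 on 4A and MSTRG.20217 on 4D were high in ZM22 as well: the 4A copy had 128, 25.2 and 8.88 FPKM in W72_ZM22 against 108, 56.2 and 4.13 FPKM in C72_ZM22. MSTRG.31349 (TraesCS6D02G333300; chromosome 6D, 435831506 to 435832386) instead had 0, 63.1 and 0 FPKM in W72_BN207, against 0, 0.509 and 0 FPKM in C72_BN207. In BN607 it had 0, 0.179 and 1.37 FPKM in W72 against 19.3, 0 and 0 FPKM in C72, so that 2 libraries held most of its FPKM. TraesCS6A02G059800 (6A, 31583535 to 31584464) was low throughout, with 0.0940, 0 and 0 FPKM in W72_ZM22 against 2.25, 0.0654 and 0.340 FPKM in C72_ZM22. The dehydrin MSTRG.15773 (TraesCS3D02G255500; 3D, 357146923 to 357147959) was also low, with at most 1.04 FPKM in W72_ZM22 and 6.95 FPKM in C72_ZM22.

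Some dehydrins were nearly absent from ZM22. MSTRG.24846 (TraesCS5B02G426700, dehydrin; 5B, 602483279 to 602484206), which lies beside MSTRG.24847, had 0.130, 339.8 and 0 FPKM in W72_BN207, against 0, 0.313 and 5.18 FPKM in C72_BN207. In BN607 it had 0, 0.217 and 70.1 FPKM in W72, against 5.38, 0.0419 and 0 FPKM in C72, and in ZM22 it did not pass 1.26 FPKM. Only 1 library of BN207 and 1 of BN607 held more than 5.38 FPKM, both waterlogged. Its median was 0.224 FPKM in ZM22, 0.222 FPKM in BN207 and 0.129 FPKM in BN607. Over the 18 libraries, each of the 37 dehydrins had a positive rank correlation with the median of the others (Spearman's rho 0.110 to 0.893, median 0.734), a description of levels that share their libraries. With the cell division level rho was below 0 for 29 of the 37, but it was spread from -0.736 to 0.639 with a median of -0.269.

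The filter for testing left out 12 members, 9 dehydrins and 3 Em proteins. They reached at most 0.463 to 31.3 FPKM (dehydrins) and 13.6 to 90.5 FPKM (Em proteins) in their highest library, and each had at most 2 libraries at 1 FPKM or more. The Rab15 locus, MSTRG.26878 (TraesCS5D02G433300; 5D, 489166583 to 489167421), a dehydrin type named for its response to abscisic acid, had 25.3 FPKM in W72_BN207 replicate 2 and 2.32 FPKM in W72_BN607 replicate 3, against at most 0.883 FPKM in the other 16 libraries. Of the members that were tested, 8 passed with only 3 or 4 libraries at 1 FPKM.

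MSTRG.30964 (TraesCS6D02G234700, dehydrin WZY1-2; chromosome 6D, 329080938 to 329082415) was the most even dehydrin, with an 11.5-fold range over the 18 libraries. It had 7.64, 26.4 and 49.5 FPKM in W72_BN607, against 73.6, 59.6 and 53.1 FPKM in C72_BN607. All 3 waterlogged BN607 libraries lay below the controls. In BN207 the groups overlapped, at 57.4, 25.7 and 9.82 FPKM in W72 and 9.67, 62.5 and 45.8 FPKM in C72, and in ZM22 likewise, at 13.0, 87.9 and 27.7 FPKM in W72 and 10.7, 49.3 and 78.3 FPKM in C72. The library that was highest for most dehydrins, W72_BN207 replicate 2, was not high for this one.

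Of the other LEA loci, the Em proteins were the most confined to W72_BN207 replicate 2. Their 6 loci summed to 1.36, 209 and 0.362 FPKM in W72_BN207, against 0.703, 2.74 and 3.01 FPKM in C72_BN207. The next highest library was W72_BN607 replicate 3 with 15.6 FPKM, and the remaining 16 lay between 0.174 and 3.55 FPKM. ZM22 libraries did not pass 1.81 FPKM, although 2 of them had dehydrin sums of 928 and 1175 FPKM. MSTRG.853 (TraesCS1A02G224100 and TraesCS1A02G224200; 1A, 394444437 to 394482797) had 0.322, 50.2 and 0.0932 FPKM in W72_BN207, against 0.101, 0.841 and 0.516 FPKM in C72_BN207. This assembled locus and its neighbour MSTRG.855 merge 2 and 3 reference genes, so their levels are those of several Em genes together.

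Lea5 showed another distribution. MSTRG.12535 (TraesCS3A02G396100; 3A, 643220218 to 643220613) had 629, 124 and 2.98 FPKM in W72_ZM22, against 232, 121 and 19.2 FPKM in C72_ZM22. BN607 libraries had 1.90, 0.829 and 1.96 FPKM in W72 and 1.54, 3.87 and 10.7 FPKM in C72. In BN207 it had 0.506, 38.4 and 60.2 FPKM in W72 and 71.4, 13.2 and 3.95 FPKM in C72. W72_ZM22 replicate 3, at 2.98 FPKM, was the only ZM22 library within the BN607 range. The 3D copy MSTRG.16311 reached 16.4 FPKM in W72_ZM22 replicate 1 and at most 0.571 FPKM in BN207 and BN607.

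Among the remaining LEA loci, MSTRG.4776 (TraesCS1D02G369200, LEA protein 3; 1D, 448282898 to 448284236) and MSTRG.4777 (TraesCS1D02G369300, LEA protein; 1D, 448376690 to 448377614) are neighbours with different patterns. MSTRG.4776 was high in ZM22 and in W72_BN207 replicate 2, with 150.0, 29.7 and 5.46 FPKM in W72_ZM22, 134, 58.2 and 17.9 FPKM in C72_ZM22, and 144 FPKM in that BN207 library. MSTRG.4777 did not pass 5.00 FPKM in ZM22 but had 343 FPKM in W72_BN207 replicate 2 and 81.4 FPKM in W72_BN607 replicate 3. The 11 kDa LEA locus MSTRG.36250 (TraesCS7D02G428800; 7D, 548894493 to 548895165) had 1.03, 52.8 and 1.83 FPKM in W72_BN207, against 3.12, 0.743 and 2.24 FPKM in C72_BN207. MSTRG.28084 (TraesCS6A02G253300, LEA protein; 6A, 468473627 to 468475112) spread from 2.08 to 58.3 FPKM over all libraries, with 3.54, 17.6 and 51.2 FPKM in W72_BN607 and 57.7, 51.7 and 35.5 FPKM in C72_BN607.

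Lea14-A loci, members of an atypical and less hydrophilic LEA family, included the most abundant members. MSTRG.1579 (TraesCS1A02G423800; 1A, 578922141 to 578922999) averaged 333 FPKM over the 18 libraries and MSTRG.4984 (TraesCS1D02G432400; 1D, 482217137 to 482218242) averaged 103 FPKM. MSTRG.1579 had 476, 242 and 337 FPKM in W72_BN207 against 263, 598 and 482 FPKM in C72_BN207, and 237, 382 and 253 FPKM in W72_BN607 against 602, 344 and 313 FPKM in C72_BN607. In ZM22 it had 11.7, 352 and 433 FPKM in W72 and 88.5, 213 and 369.9 FPKM in C72. Its lowest library was W72_ZM22 replicate 1, which had the highest Lea5 level. The 3 longer Lea14-A loci were the steadiest of all 59: MSTRG.18010 (TraesCS4A02G343300; 4A, 623314960 to 623317750) varied 2.99-fold, MSTRG.25188 (TraesCS5B02G531400; 5B, 689374144 to 689376904) 3.29-fold and MSTRG.27174 (TraesCS5D02G529700; 5D, 546084649 to 546087520) 3.64-fold between their lowest and highest library.

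The other 2 Lea14-A loci, on 3A (MSTRG.11513) and 3D (MSTRG.15332), were distributed like the dehydrins. They had 0.868, 135 and 0.728 FPKM (3A) and 1.02, 72.6 and 0.4998 FPKM (3D) in W72_BN207, against 7.26, 0.995 and 1.62 FPKM and 5.25, 1.07 and 2.02 FPKM in C72_BN207. A shared name thus did not go with a shared pattern. In the deposited annotation, 33 of the 37 dehydrins carried the term response to water deprivation, against 4 of the 22 other LEA loci, and 7 of those 22 carried response to desiccation, against 0 of the 37 dehydrins.

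**Figure D3:**
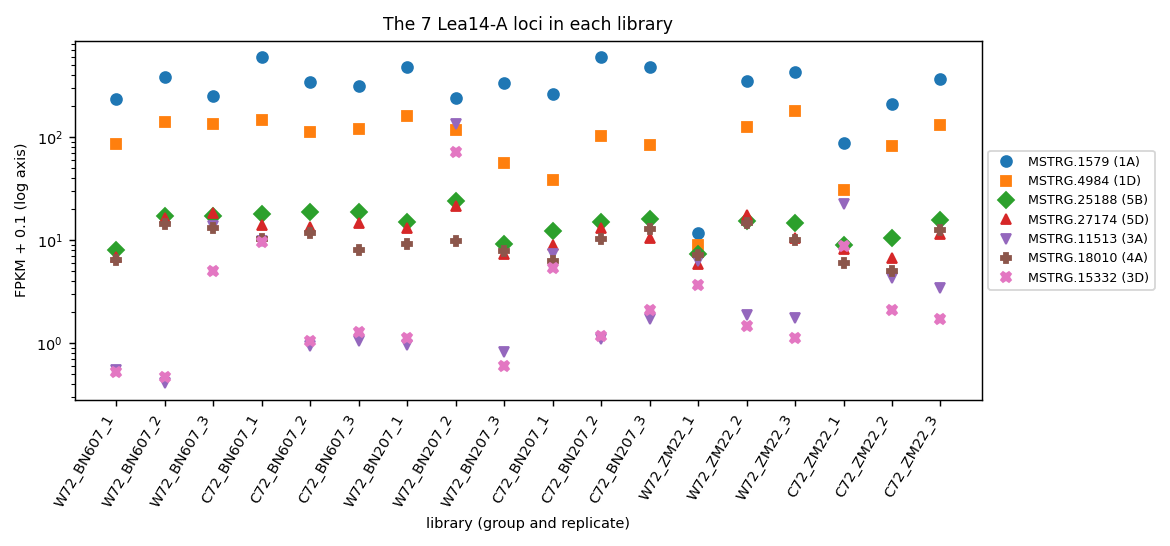
FPKM + 0.1 (log axis) of the 7 Lea14-A loci in each of the 18 libraries, W72 left of C72 in each variety. MSTRG.1579 lies on top in every library shown, the 4A, 5B and 5D loci stay between 4.94 and 23.8 FPKM, and the 3A and 3D loci peak at 135 and 72.6 FPKM in W72_BN207 replicate 2.

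Whether waterlogging changed LEA transcripts was tested in each variety with edgeR's quasi-likelihood test on the counts, fitted to all 50656 loci that passed the filter, of which 47 are members (28 dehydrins and 19 other LEA loci). With Benjamini-Hochberg adjustment over all loci, no member was called in BN207, BN607 or ZM22 at an adjusted p under 0.05, where the background over all tested loci was 0%, 0% and 0.00592%. Averaged over the varieties there were also 0 (background 0.00197%), and 0 at an unadjusted p under 0.05 (background 2.72%). DESeq2 called 0 members in each of these comparisons, where its background was 0.541%, 0.0671% and 0.284% in the varieties and 0.43% on average. At an unadjusted p under 0.05 there were 4 members in BN207, 0 in BN607 and 1 in ZM22, where the background was 1.89%, 2.12% and 1.09%. In BN207 this number was 11 without W72_BN207 replicate 1 (background 3.28%) and 0 without W72_BN207 replicate 2 (background 2.13%), and 0 had an adjusted p under 0.05 without either. The waterlogged and control libraries did not overlap for 2 members in BN607, where 9.44% of all tested loci did not overlap, and for 0 in BN207 and ZM22, where 3.62% and 3.4% did not. Without W72_BN207 replicate 1, 2 members did not overlap in BN207, where 14.4% of all tested loci did not. The 2 members in BN607 were MSTRG.30964 (log2 fold change -1.11, SE 0.78) and the 5B Lea14-A locus MSTRG.25188 (log2 fold change -0.24, SE 0.28), both lower in W72, a separation in that direction shown by 7.95% of all tested loci.

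The direction of the dehydrins in BN207 rested on 1 library. With all libraries, 26 of the 28 tested dehydrins had a log2 fold change above 0 (median 3.80) and 15 of the 19 other LEA loci (median 1.38), beside a median of -0.05 over all tested loci. Without W72_BN207 replicate 1, the library that carries BN607 transcripts, the medians were 4.38 and 1.89. Without W72_BN207 replicate 2, only 3 of the 28 dehydrins and 3 of the 19 other LEA loci were above 0, with medians of -2.00 and -0.69. This fit kept replicate 1, with its BN607 transcripts, beside replicate 3, and no fit left out both replicate 1 and replicate 2. Its medians are thus not those of BN207 seeds alone. The 4 members at an unadjusted p under 0.05 in BN207 were all dehydrins (MSTRG.22668, MSTRG.24631, MSTRG.26877 and MSTRG.31350), among them MSTRG.24631 (log2 fold change 6.57, SE 2.91) and MSTRG.26877 (6.30, SE 2.77), each with an edgeR adjusted p of 1. Without replicate 2 these log2 fold changes were -0.81 and -2.17. For the Em locus MSTRG.853 the log2 fold change was 5.21 (SE 2.46, edgeR adjusted p = 1), and -1.02 without replicate 2.

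**Figure D4:**
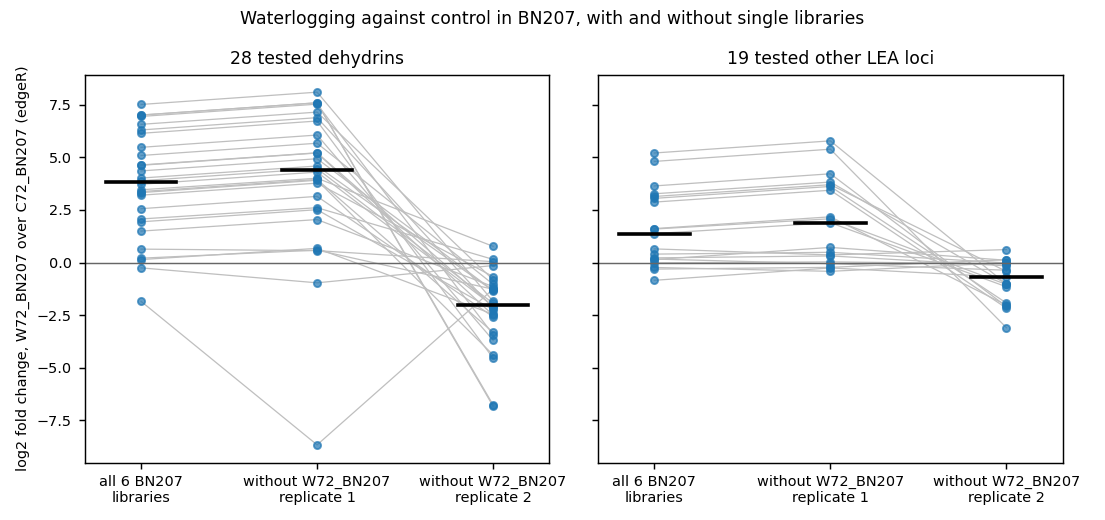
log2 fold change of W72_BN207 over C72_BN207 (edgeR) for the 28 tested dehydrins and 19 tested other LEA loci, with all BN207 libraries, without W72_BN207 replicate 1 and without W72_BN207 replicate 2; grey lines join a locus and black bars are medians. The dehydrin median lies at 3.80, 4.38 and -2.00 in turn, the last with replicate 1 and its BN607 transcripts still in the fit.

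In BN607 the dehydrin median was 0.23, with 16 of 28 above 0, and that of the other LEA loci 0.23, beside 0.10 over all tested loci. It became -2.61 without W72_BN607 replicate 3 and 3.61 without C72_BN607 replicate 1. In ZM22 the medians were -0.29 (10 of 28 dehydrins above 0) and -0.04, beside -0.02 over all tested loci, and without W72_ZM22 replicate 1 they were -2.44 and -1.14. The member at an unadjusted p under 0.05 in ZM22 was TraesCS6A02G059800, with a log2 fold change of -4.80 (SE 2.21, edgeR adjusted p = 1) on levels of at most 2.25 FPKM in ZM22. It was -2.40 without C72_ZM22 replicate 1 and -9.46 without W72_ZM22 replicate 1.

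Whether the response differed between varieties was tested by interaction terms in the same edgeR model. At an adjusted p under 0.05 there were 0 members for BN207 against ZM22, BN607 against ZM22 and BN607 against BN207, with a background of 0.00395%, 0.00395% and 0%, and DESeq2 likewise called 0 (background 0.458%, 0.215% and 0.322%). At an unadjusted p under 0.05 there were 1, 0 and 1 members, where the background was 1.49%, 1.37% and 1.36%. For BN207 against ZM22 and BN607 against BN207 there were 5 and 4 without W72_BN207 replicate 1 (background 1.6% and 1.18%), and 0 in both without W72_BN207 replicate 2 (background 2.12% and 1.89%). The dehydrin medians of the 3 differences were 4.85, 1.40 and -2.61. The medians that involve BN207 were 5.41 and -3.19 without W72_BN207 replicate 1, and -0.77 and 2.43 without W72_BN207 replicate 2 but with replicate 1. That of BN607 against ZM22 was -1.72 without W72_BN607 replicate 3 and 4.31 without C72_BN607 replicate 1.

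Differences between varieties, averaged over both treatments, were called for 4 loci. For BN607 against ZM22, edgeR called 4 of the 47 members, 2 higher and 2 lower in BN607 (background 10.6% of all tested loci, 3.84% higher and 6.8% lower). For BN207 against ZM22 it called 2, both higher in BN207 (background 4.63%, 2.42% higher and 2.21% lower). For BN607 against BN207 it called 0 (background 1.52%), with 3 at an unadjusted p under 0.05, where the background was 9.53%. At an unadjusted p under 0.05 there were 12 members for BN607 against ZM22 and 7 for BN207 against ZM22, where the background was 27.7% and 16.8%. BN607 and BN207 libraries overlapped for every tested member, and 1.12% of all tested loci did not overlap. The shares of members called by edgeR were near or below the background. DESeq2 called 12 members for BN607 against ZM22, 2 higher and 10 lower (background 20%, 7.68% higher and 12.3% lower), 3 for BN207 against ZM22 (background 10.4%) and 2 for BN607 against BN207 (background 4.67%). Without W72_BN207 replicate 1, edgeR called 1 member for BN207 against ZM22 (background 4.7%) and 1 for BN607 against BN207 (background 4.11%), with 6 and 8 at an unadjusted p under 0.05 (background 16.9% and 13.9%). For each of these pairs 1 member then did not overlap, where 5.21% and 5.63% of all tested loci did not. Over the same contrast of BN607 with ZM22, 23 of the 363 tested cell division loci were called higher and 4 lower, and their part in these differences was not tested.

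The YSK2 dehydrin 3 on 6A, MSTRG.28448 (TraesCS6A02G350500; 582264726 to 582266027), was nearly absent from BN607. It had 0, 0.408 and 0 FPKM in W72_BN607 and 0.163, 0 and 0.145 FPKM in C72_BN607, against 53.2, 7.87 and 4.72 FPKM in W72_ZM22 and 139.5, 86.8 and 8.62 FPKM in C72_ZM22. The 6 BN607 libraries averaged 0.119 ± 0.160 FPKM and the 6 ZM22 libraries 50.1 ± 54.6 FPKM (SD, n = 6 each), and the varieties did not overlap, with BN607 below ZM22, a separation shown by 2.79% of all tested loci. The log2 fold change of BN607 over ZM22 was -8.77 (SE 2.11, edgeR adjusted p = 0.0174), but leaving out any of 4 BN607 libraries in turn gave an adjusted p between 0.0521 and 0.0615. No BN607 library reached the 1 FPKM of the filter, so this locus was tested through the varieties where it is high. In BN207 it had 0, 282 and 4.58 FPKM in W72 and 33.7, 1.91 and 8.12 FPKM in C72. The library at 0 is W72_BN207 replicate 1, the one with BN607 transcripts, and without it the log2 fold change of BN607 over BN207 was -8.85 (SE 1.76, edgeR adjusted p = 0.00835), against -8.56 (SE 2.10, adjusted p = 0.0607) with it.

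The next dehydrin of this row on 6A was found in only 2 libraries, both of BN607. MSTRG.28450 (TraesCS6A02G350600, DHN3; 582511276 to 582512221), picked out after its values were seen, had 31.3 FPKM in W72_BN607 replicate 3 and 24.7 FPKM in C72_BN607 replicate 1, and at most 0.107 FPKM in each of the other 16 libraries. These 2 libraries had the highest dehydrin sums of BN607, and the locus was at 0 FPKM in the rest of that variety. W72_BN207 replicate 2, with 4809.6 FPKM of dehydrins, had 0.107 FPKM of it. With 2 libraries above 1 FPKM it did not pass the filter and was not tested.

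Lea5 on 3A was the other locus called lower in BN607. MSTRG.12535 averaged 3.46 ± 3.67 FPKM in BN607 and 188 ± 231 FPKM in ZM22 (SD, n = 6 each), and the log2 fold change of BN607 over ZM22 was -6.24 (SE 1.42, edgeR adjusted p = 0.0130). It was called under 24 of the 25 alternatives tried, the exception being the fit without C72_BN607 replicate 2 (adjusted p = 0.0518). BN207 averaged 31.3 ± 30.03 FPKM (SD, n = 6), and its log2 fold change over ZM22 was -2.47 (SE 1.19, edgeR adjusted p = 0.314). For BN607 over BN207 it was -3.77 (SE 1.27, adjusted p = 0.225), and without W72_BN207 replicate 1 it was -4.06 (SE 1.17, adjusted p = 0.0814).

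The 2 loci called higher in BN607 and BN207 than in ZM22 were low in every library. The dehydrin MSTRG.36558 (TraesCS7D02G549900; 7D, 634439606 to 634440272) had 0.0733, 3.28 and 4.29 FPKM in W72_BN607 and 2.54, 0.873 and 3.10 FPKM in C72_BN607, against at most 0.249 FPKM in the 6 ZM22 libraries. Only W72_BN607 replicate 1 lay within the ZM22 range. Its log2 fold change was 4.18 for BN607 over ZM22 (SE 0.96, edgeR adjusted p = 0.0133), called under all 25 alternatives. No ZM22 library reached the 1 FPKM of the filter, so this locus was tested through the varieties where it is high. In BN207 it had 2.24, 3.24 and 0.355 FPKM in W72 and 0.391, 1.71 and 1.91 FPKM in C72, all above ZM22, a separation in that direction shown by 1.89% of all tested loci. The log2 fold change of BN207 over ZM22 was 3.87 (SE 0.94, edgeR adjusted p = 0.0301), 3.84 without W72_BN207 replicate 1 (adjusted p = 0.0434) and 3.57 without W72_BN207 replicate 2 (adjusted p = 0.0705). It was called under 17 of 25 alternatives, and not without W72_ZM22 replicate 2, C72_ZM22 replicate 1 or 2, W72_BN207 replicate 2, or C72_BN207 replicate 2 or 3, nor with limma on log2(FPKM + 1) or with only the varieties compared.

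The group 3 LEA locus TraesCS4B02G332800 (4B, 623226593 to 623227518) had 0.833, 0.364 and 0.555 FPKM in W72_BN607 and 0.672, 0.473 and 0.905 FPKM in C72_BN607, against 0, 0 and 0.0510 FPKM in W72_ZM22 and 0, 0 and 0.216 FPKM in C72_ZM22. The 2 varieties did not overlap, with BN607 above ZM22, as for 3.83% of all tested loci. The log2 fold change of BN607 over ZM22 was 4.004 (SE 1.15, edgeR adjusted p = 0.0387), called under 12 of 25 alternatives. In BN207 it had 0.636, 0.1798 and 1.05 FPKM in W72 and 0.141, 1.32 and 1.32 FPKM in C72, which overlapped the highest ZM22 library. The log2 fold change of BN207 over ZM22 was 4.41 (SE 1.16, edgeR adjusted p = 0.0443), but 4.45 with an adjusted p of 0.0553 without W72_BN207 replicate 1, and it was called under 9 of 25 alternatives. Only BN207 libraries reached the 1 FPKM of the filter, so the locus was tested through the variety where it is high. With no filter it was called neither for BN207 nor for BN607 against ZM22.

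**Figure D5:**
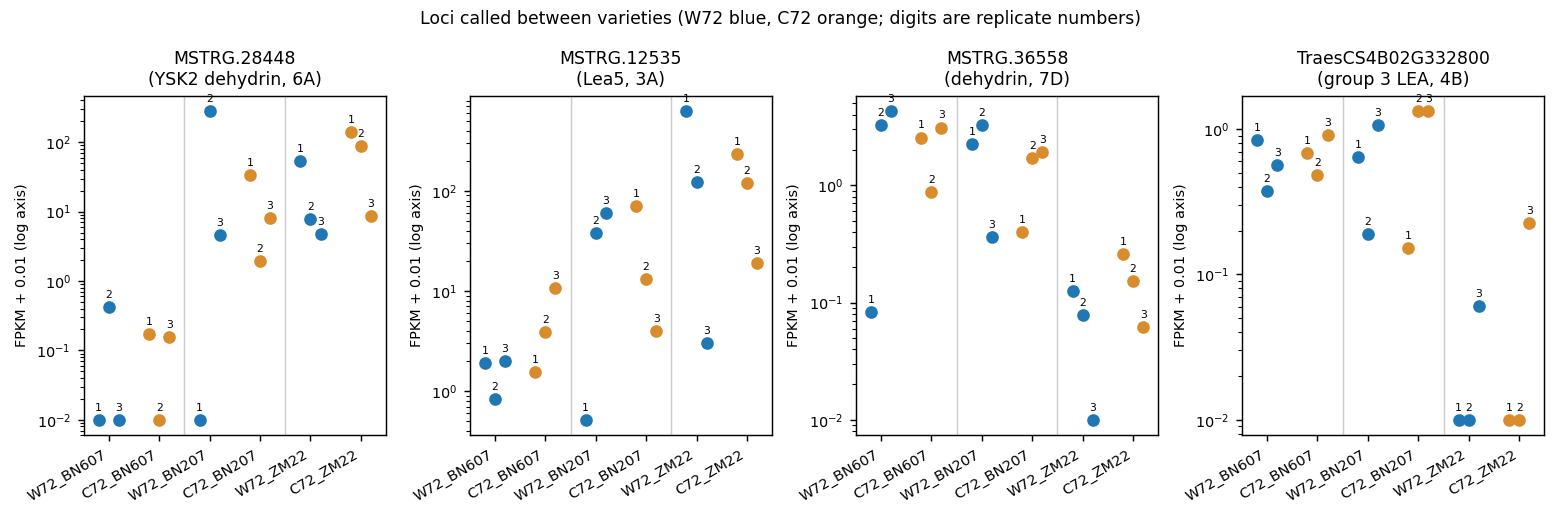
FPKM + 0.01 (log axis) of the 4 loci called between varieties, in each library, with W72 in blue, C72 in orange and the replicate number beside each point. MSTRG.28448 is at most 0.408 FPKM in BN607 and in W72_BN207 replicate 1 but at least 1.91 FPKM in the other libraries, MSTRG.12535 is mostly high in ZM22, and the last 2 loci are near 0 in ZM22.

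Loci of related pathways were described by the same contrasts. Median log2 fold changes of W72 over C72 in BN207, BN607 and ZM22 were 0.12, 0.57 and -0.14 for 37 tested loci of abscisic acid signalling, and 0.06, -0.31 and -0.36 for 34 loci with LEA-family names that the rule did not take in. They were 0.10, 0.09 and -0.16 for 14 oil body loci, such as oleosins that coat the seed's oil droplets, and -0.54, 0.17 and 0.25 for 11 small heat shock loci. The 22 loci of the CBF and DREB factors, known to switch on cold and drought genes including dehydrins, had medians of -0.92, -1.37 and -0.67, and the 1 tested raffinose family locus had -0.38, -1.40 and -0.58. At an unadjusted p under 0.05 these lists held at most 2 loci in a variety (background 1.89%, 2.12% and 1.09%), the 2 being CBF and DREB loci in BN607. In BN607, 11 of the 22 CBF and DREB loci and 10 of the 34 with LEA-family names did not overlap, all lower in W72. Of all tested loci 9.44% did not overlap there, 7.95% lower. In BN207 and ZM22 at most 1 locus of either list did not overlap (background 3.62% and 3.4%). In BN607 against ZM22, 4 of the 37 abscisic acid signalling loci and 4 of the 34 loci with LEA-family names were called lower and 0 of either higher, where 6.8% of all tested loci were called lower and 3.84% higher. Of the other lists, 1 oil body locus was called higher and 1 CBF or DREB locus lower.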

How the data were processed

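Poly(A) RNA of 18 seed libraries was sequenced, and per the labels and the study's methods the authors used HISAT for alignment, against the wheat assembly IWGSC RefSeq v1.0, and built merged transcript loci with StringTie; tool versions were not stated. The deposited table holds FPKM and counts per locus, and how the authors derived the counts was not stated. They were handled like expected counts, estimates that were rounded to whole numbers: 49.0% of the deposited counts between 1 and 19 were multiples of 4, where 21.1% of these whole numbers are, so a count need not be 1 fragment and depth may be overstated. The table's columns of the authors' own comparisons (fold changes and p-values) were not used.

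Columns were mapped to libraries by their names and grouped as labelled. Counts of loci with at least 1 FPKM in 3 libraries were fitted with edgeR 4.0.16 (R 4.3.3; TMM, 6 group means, quasi-likelihood test), two-sided, with Benjamini-Hochberg adjustment. The filter lets a locus pass through the group where it is high, so counts over tested members do not cover all members. Alternatives were DESeq2 1.42.0, RLE size factors, no filter, members matched without the word start, limma 3.58.1 on log2(FPKM + 1) and log2(FPKM + 0.1), a replicate block, counts divided by 4, only the varieties compared, and each library left out. The fit was also run on simulated data, and the outcome is not given here. The common biological coefficient of variation was 0.676. With this spread and 3 libraries per group, a locus that was not called is not thereby shown to be unchanged. Each SE beside an edgeR log2 fold change is its absolute value divided by the square root of the test's F statistic. It is not an SE estimated by the fit.

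The members and all lists were chosen with earlier results of these data known. Named loci were the 6 dehydrins and 8 other LEA loci of highest mean FPKM, the 2 of each kind with the smallest p for W72 against C72 in each variety, the 1 of each kind with the smallest p for each pair of varieties, every locus called, and partners of the top loci on the other subgenomes. Loci named outside this rule were chosen after their values were seen. Marker lists (cell division, seed storage proteins, aleurone hydrolases, green shoot, anaerobic response) and pathway lists were set by words in the deposited descriptions. The small heat shock list takes in a few descriptions of other proteins caught by its pattern of numbers. Near-identical homoeologous and tandem copies may share reads, and no source states whether counting used strand.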

Additional observations from a re-analysis of the deposited data

How the results depend on the processing

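No member was called for waterlogging against control, in any variety or on average, or for a difference between varieties in that response, under any of the alternatives tried. The medians moved with single libraries. Leaving out 1 library in turn, the dehydrin median of W72 over C72 ranged between -2.00 and 4.89 in BN207 (lowest without W72_BN207 replicate 2), between -2.61 and 3.61 in BN607 and between -2.44 and 0.11 in ZM22. The other LEA median ranged between -0.69 and 2.51 in BN207, -1.23 and 0.46 in BN607, and -1.14 and 0.27 in ZM22. With limma on log2(FPKM + 1) and log2(FPKM + 0.1) the dehydrin median in BN207 was 1.30 and 1.28. With a replicate block it was 0.40. Same-numbered libraries deviated together in 3 of 9 pairs (correlations -0.51 to 0.58 over all 9), with 0.58 and 0.40 in ZM22 replicates 1 and 3. Deviations were taken from group means of 3 libraries, and W72_BN207 replicate 1 carries BN607 transcripts. They therefore cannot decide whether the numbers pair the libraries.

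Between varieties, BN207 against ZM22 had 2 members called, but 1 with no filter, 1 with limma on log2(FPKM + 1), 0 with only the varieties compared and 0 to 2 with a library left out (0 without W72_ZM22 replicate 2, C72_ZM22 replicate 1 or 2, W72_BN207 replicate 2, or C72_BN207 replicate 2 or 3). BN607 against ZM22 had 4, but 12 with DESeq2 (2 higher, 10 lower) and 1 to 7 with a library left out (1 without C72_BN607 replicate 2, 2 without W72_BN607 replicate 3 or C72_BN607 replicate 1 or 3, 7 without C72_ZM22 replicate 3 or C72_BN207 replicate 1). BN607 against BN207 had 0, but 2 with DESeq2, 1 with counts divided by 4 and 0 to 1 with a library left out (1 without W72_BN207 replicate 1). The cause of these shifts was not tested. With only the varieties compared there is no separate fit for the average over varieties, which already uses all of them. Over all tested loci, edgeR and DESeq2 called 0 and 274 loci for W72 against C72 in BN207, 0 and 34 in BN607, and 3 and 144 in ZM22.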

Other observations

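The other marker lists also varied within groups. The 85 tested aleurone hydrolase loci, enzymes that the aleurone layer releases to digest the endosperm, summed to 16037 to 50706 FPKM in W72_BN207 and 18652 to 54709 FPKM in C72_BN207. Of these, 2 in BN207, 1 in BN607 and 0 in ZM22 had an unadjusted edgeR p under 0.05 for W72 against C72, where 1.89%, 2.12% and 1.09% of all tested loci had one. The 41 tested anaerobic response loci summed to 1248 to 4671 FPKM in W72_ZM22 and 977 to 3101 FPKM in C72_ZM22, to 540.4 to 827 FPKM in W72_BN207, 619 to 1567 FPKM in C72_BN207, 604 to 760 FPKM in W72_BN607 and 731 to 1319 FPKM in C72_BN607. The waterlogged ZM22 libraries lay above the waterlogged ones of both other varieties, whereas the controls overlapped. For BN607 against ZM22, 9 of the 41 were called lower and 0 higher, where 6.8% of all tested loci were called lower and 3.84% higher. The 27 tested green shoot loci summed to at most 134 FPKM in any library.

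Storage protein loci had median log2 fold changes of W72 over C72 of -2.07 in BN207, -0.69 in BN607 and -2.22 in ZM22. Of the 37 tested, 10, 1 and 14 had an unadjusted edgeR p under 0.05, where 1.89%, 2.12% and 1.09% of all tested loci had one.

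The W72_BN207 library that carries BN607 transcripts had a dehydrin sum of 87.6 FPKM, which lies within the range of both W72_BN607 (32.7 to 1140.1 FPKM) and the other 2 W72_BN207 libraries (73.9 and 4809.6 FPKM).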
